A study of Mus musculus with 8 samples.

Results

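Interferon response genes were examined in lung endothelial cells of mice, isolated by fluorescence-activated sorting. The set was defined by name, as 41 symbols matched to rows of a table of 31610 genes, and all 41 had a row and passed the low-count filter among 18874 genes tested. Of the 41, 30 were antiviral genes known mainly for induction by type I interferon, and 11 were known mainly for induction by interferon gamma: 8 GTPases of the GBP and IRG families, the chemokines Cxcl9 and Cxcl10, and Irf1. The libraries came from C57BL/6J mice given an nANGPTL4 AAV (4 libraries) and from C57BL/6J mice given a control AAV (4 libraries). AAV is adeno-associated virus, a gene delivery vector that both groups received, and ANGPTL4 is a secreted protein that inhibits lipoprotein lipase, nANGPTL4 being the part at its N terminus. The labels state that replicates were independent and give no age, sex, vector dose, promoter or interval after injection. The titles of the nANGPTL4 AAV libraries use an unexplained abbreviation, so that group is known by its treatment field alone.

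Interferons are secreted signalling proteins, and type I interferon is released by cells that sense foreign nucleic acid. Type I interferon acts through the IFNAR receptor and the kinases JAK1 and TYK2 to form a complex that holds STAT2 and IRF9 and binds the interferon-stimulated response element (ISRE) of antiviral genes. Interferon gamma acts through the IFNGR receptor and the gamma-activated site (GAS) of its target genes to induce IRF1 and the GBP and IRG GTPases. Most of these genes answer both interferons to some extent, so the division is one of emphasis. Lung endothelium expresses the receptors of both kinds.

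The stretches of 160 bases before the annotated start are shown for 4 antiviral genes with some of the largest log2 fold changes and for 4 genes of the interferon gamma class, since these hold the letters that the ISRE and GAS are known by. They are from RefSeq on GRCm38.p6, read 5′ to 3′ on the gene's strand, with capitals for every match, on either strand, to the GAS (TTCNNNGAA) or to the ISRE core, which is a pair of GAAA runs with any 2 bases between them. The antiviral windows were chr4:156200819-156200978, minus strand for Isg15, chr12:26456453-26456612, minus strand for Rsad2, chr19:34583369-34583528, plus strand for Ifit3 and chr19:34640729-34640888, plus strand for Ifit1. The others were chr3:142620503-142620662, plus strand for Gbp2, chr3:142530176-142530335, plus strand for Gbp7, chr11:58199396-58199555, plus strand for Igtp and chr11:53769854-53770013, plus strand for the upstream start of Irf1.
Isg15: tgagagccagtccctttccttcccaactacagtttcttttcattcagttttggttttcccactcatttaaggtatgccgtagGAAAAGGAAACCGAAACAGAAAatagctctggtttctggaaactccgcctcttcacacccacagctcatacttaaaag
Rsad2: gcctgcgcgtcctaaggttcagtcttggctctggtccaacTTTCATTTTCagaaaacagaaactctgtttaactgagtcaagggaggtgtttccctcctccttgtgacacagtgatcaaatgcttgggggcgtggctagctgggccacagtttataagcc
Ifit3: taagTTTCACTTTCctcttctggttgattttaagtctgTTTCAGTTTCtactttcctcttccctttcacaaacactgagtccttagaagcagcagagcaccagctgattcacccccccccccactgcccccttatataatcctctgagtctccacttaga
Ifit1: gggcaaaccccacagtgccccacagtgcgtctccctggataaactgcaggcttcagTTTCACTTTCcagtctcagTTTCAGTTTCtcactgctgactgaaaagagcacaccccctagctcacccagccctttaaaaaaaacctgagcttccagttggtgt
Gbp2: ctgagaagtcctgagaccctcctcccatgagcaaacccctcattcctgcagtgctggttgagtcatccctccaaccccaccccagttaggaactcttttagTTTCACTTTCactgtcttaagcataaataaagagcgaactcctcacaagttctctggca
Gbp7: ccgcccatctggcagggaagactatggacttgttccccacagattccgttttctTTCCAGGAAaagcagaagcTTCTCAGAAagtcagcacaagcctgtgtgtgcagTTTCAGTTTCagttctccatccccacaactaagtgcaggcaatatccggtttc
Igtp: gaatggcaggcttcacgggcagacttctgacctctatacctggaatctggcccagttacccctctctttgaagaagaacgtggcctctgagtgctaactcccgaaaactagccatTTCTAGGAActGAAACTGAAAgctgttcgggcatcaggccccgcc
Irf1: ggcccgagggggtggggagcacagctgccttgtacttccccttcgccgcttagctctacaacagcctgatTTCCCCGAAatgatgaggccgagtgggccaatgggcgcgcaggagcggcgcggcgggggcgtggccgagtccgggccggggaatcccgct

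Isg15 held 3 overlapping ISRE cores in 1 run of capitals, on the gene's strand. Ifit3 and Ifit1 held 2 each and Rsad2 held 1, all on the opposite strand, where they read as TTTC pairs. Gbp2, Gbp7 and Igtp held 1 ISRE core each, Gbp7 also held 2 GAS matches and Igtp 1, and Irf1 held 1 GAS match and no ISRE core. RefSeq windows were matched for 31 of the 41 genes. Over the 250 bases before the start, the ISRE core was present in 7 of 22 antiviral genes (31.8%) and in 6 of 9 genes of the interferon gamma class (66.7%), against 3.46% of all 27025 genes with a window. The GAS was present in 5 of 22 antiviral genes (22.7%) and 3 of 9 of the interferon gamma class (33.3%), against 8.13% of all genes. Among antiviral genes, the 7 with an ISRE core in the window had a median log2 fold change of 0.24 (0.01 to 0.46), and the 15 without one had a median of 0.06 (-0.11 to 0.20). In the interferon gamma class, the 6 with an ISRE core had a median of 0.06 (-0.01 to 0.23). The 3 without one had a median of -0.12 (-0.24 to 0.01), and Gbp4 and Iigp1 had no matched window. A match is a string of letters and not evidence of binding, and these medians are a description of few genes with no test. The other 8 antiviral genes (Dhx58, Zbp1, Usp18, Mx1, Mx2, Rtp4, Parp9 and Parp14) had no matched window and are in neither antiviral median. Their own median was 0.17 (0.03 to 0.49), and the gap between the 2 antiviral medians above leaves them out.

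No gene of the set passed the test over all genes. By edgeR's quasi-likelihood test with Benjamini-Hochberg adjustment, 0 of 41 had an adjusted p under 0.05, where 0.138% of all tested genes did (26 of 18874), 0.0477% higher and 0.0901% lower in nANGPTL4 AAV. The smallest adjusted p-values belonged to Isg15 (0.0622) and Rsad2 (0.0785). At an unadjusted p under 0.05, 11 of the 41 genes had higher values in nANGPTL4 AAV, where 7.35% of all tested genes and 4.26% of those with a mean log2 CPM over 3 did. At that p, 0 of the 41 had lower values, where 10.3% of all tested genes and 1688 of 9256 of that abundance did. DESeq2 called 5 of them, all higher (Isg15, Rsad2, Dhx58, Ifit3 and Usp18, with adjusted p from 0.000347 to 0.0338), where it called 6.29% of the genes it tested, 1.87% higher and 4.43% lower. Over 18 alternatives the highest adjusted p of each of these 5 was between 0.203 for Isg15 and 0.270 for Usp18. A robust edgeR fit called Isg15 alone (adjusted p = 0.0473), where it called 0.313% of all genes, 0.0848% higher and 0.228% lower.

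The antiviral genes were mostly positive in log2 fold change, and the interferon gamma class was divided between both signs, a contrast that the wider lists of the pathway, given last, did not show. Of the 30 antiviral genes, 27 had a positive log2 fold change, where 52.2% of all tested genes did, and their median was 0.10, where that of all tested genes was 0.01. Of the 28 antiviral genes with a mean log2 CPM over 3, 25 were positive with a median of 0.08, where 37.5% of all genes of that abundance were positive and their median was -0.03. Of the 11 genes of the interferon gamma class, 6 were positive and 5 negative, with a median of 0.0046, and all 11 adjusted p-values in the edgeR test were 0.343 or more. Every nANGPTL4 AAV library lay above every control AAV library for 6 antiviral genes, where 3.89% of all tested genes and 2.21% of those with a mean log2 CPM over 3 did so, and for 0 genes of the interferon gamma class. No gene of the set had every nANGPTL4 AAV library below every control AAV library, where 6.99% of all tested genes did. These are counts and medians, and the difference between the classes was not tested.

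**Figure D1:**
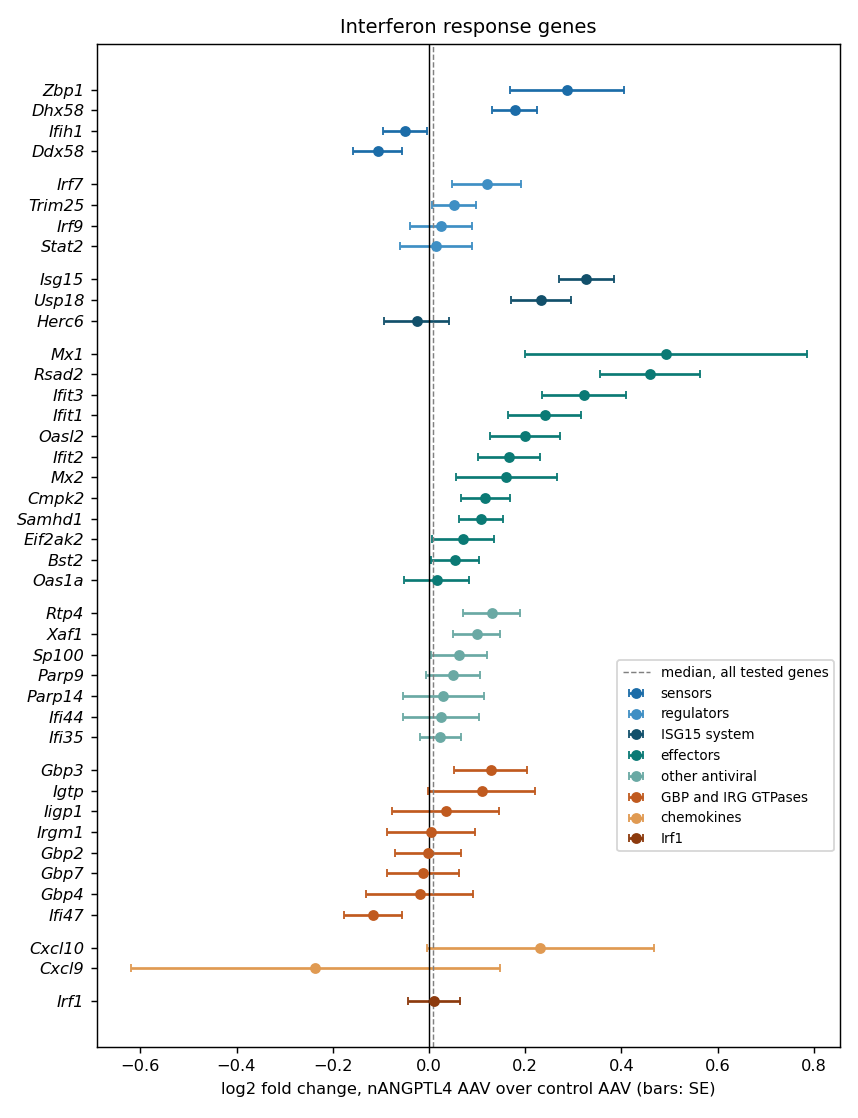
Log2 fold change of nANGPTL4 AAV over control AAV (horizontal axis, bars show the SE) for the 41 interferon response genes, grouped by role. The antiviral genes lie mostly right of 0, up to 0.46 for Rsad2 and 0.49 for the scarce Mx1, and the GBP and IRG genes lie between -0.12 and 0.13.

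Markers of other cells stood beside these values. Total counts were 83183122 to 114337333 per library, and the endothelial marker Pecam1 was at 2539 to 2692 CPM in nANGPTL4 AAV and 2593 to 2835 CPM in control AAV, with 7 of 8 endothelial markers negative in log2 fold change. The 8 summed to 15032 to 15961 CPM in nANGPTL4 AAV and 15934 to 16814 CPM in control AAV. For Vwf and Tek every nANGPTL4 AAV library lay below every control AAV library, with log2 fold changes of -0.27 (SE 0.06, adjusted p by edgeR = 0.0783) and -0.13 (SE 0.05, adjusted p by edgeR = 0.249). All 8 endothelial markers had a mean log2 CPM over 3. Of the 9256 tested genes of that abundance, 5787 were negative in log2 fold change. For 1168 of these 9256 every nANGPTL4 AAV library lay below every control AAV library. All tested markers of immune cells, which also express interferon response genes, were positive, and 0 were called (5 of 12 lymphocyte markers, 5 of 12 myeloid markers and all 5 pan-leukocyte markers were tested). Over all tested genes, 52.2% were positive and 0.138% were called. The lymphocyte markers summed to 2.70 to 6.04 CPM in nANGPTL4 AAV and 2.02 to 2.56 CPM in control AAV, without overlap. The myeloid markers summed to 33.2 to 55.0 CPM in nANGPTL4 AAV and 20.4 to 42.0 CPM in control AAV, and the pan-leukocyte markers to 6.30 to 11.9 CPM in nANGPTL4 AAV and 5.25 to 7.38 CPM in control AAV. Of 9 epithelial markers 8 were positive and 1 was called, the club cell secretoglobin Scgb3a2, and they summed to 185 to 307 CPM in nANGPTL4 AAV and 83.3 to 225 CPM in control AAV. The fibroblast and mural markers summed to 59.1 to 144 CPM in nANGPTL4 AAV and 46.0 to 113 CPM in control AAV, and the erythroid and platelet markers to 74.3 to 86.6 CPM in nANGPTL4 AAV and 45.7 to 88.9 CPM in control AAV. The macrophage marker Cd68 had 6.89, 5.66, 6.92 and 6.81 CPM in nANGPTL4 AAV libraries, against 5.28, 4.43, 4.96 and 4.51 CPM in control AAV libraries. Its groups did not overlap (log2 fold change 0.46 ± 0.10 SE, adjusted p by edgeR = 0.0718). The other tested myeloid markers had overlapping groups, with log2 fold changes of 0.05 for Cd14, 0.29 for Lyz2, 0.41 for Csf1r and 0.92 for Mpeg1. Among those too scarce to test, S100a8 and S100a9 were higher in nANGPTL4 AAV without overlap, and Marco and Siglecf had lower means. Adgre1, Itgax and Csf3r had overlapping groups. No marker was at 0 in all libraries, but Cd3d had 0 counts in nANGPTL4 AAV libraries 1 and 3, and Siglech, a marker of the plasmacytoid dendritic cells that make type I interferon, had at most 3 counts in any library. Of 6 markers of these dendritic cells, 5 were tested, all positive (log2 fold changes of 0.03 for Tcf4 to 0.49 for Ccr9), and 0 were called. The 6 markers summed to 656 to 744 CPM in nANGPTL4 AAV and 679 to 696 CPM in control AAV. Nearly all of this came from Bst2 (means of 270 CPM in nANGPTL4 AAV and 260 CPM in control AAV) and Tcf4 (430 and 423 CPM). Irf8 had means of 4.37 and 3.59 CPM, and Ly6d and Ccr9 were scarcer. The sum therefore tells little about these dendritic cells. Bst2, one of the 5 tested, is also a gene of the set. Without nANGPTL4 AAV library 2, which had the highest lymphocyte and pan-leukocyte sums, the antiviral median log2 fold change was 0.13. That library was also the lowest of its group in the antiviral genes, with a mean log2 deviation of -0.0042 from the 8-library mean. Leaving it out therefore cannot tell whether other cells had a part. The part of other cells in the fold changes was not tested, and in bulk samples fewer cells of a type and less RNA per cell cannot be told apart.

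The ISG15 system modifies proteins with a ubiquitin-like tag. Isg15, the tag itself, had 38.8, 35.0, 36.7 and 37.6 CPM in nANGPTL4 AAV libraries 1 to 4, against 28.0, 28.4, 29.3 and 32.4 CPM in control AAV libraries 1 to 4, where CPM is the count relative to the scaled library size. The groups did not overlap, and the means were 37.0 ± 1.61 and 29.5 ± 1.99 CPM (SD over 4 libraries each), or a log2 fold change of 0.33 ± 0.06 (standard error, adjusted p by edgeR = 0.0622). Its log2 fold change lay between 0.31 and 0.37 over 18 alternative settings, with an adjusted p of 0.000347 to 0.203. Usp18, the protease that removes ISG15 and also restrains IFNAR signalling, had 64.2, 55.8, 60.1 and 67.6 CPM in nANGPTL4 AAV libraries, against 50.3, 50.7, 54.6 and 55.3 CPM in control AAV libraries. Its groups did not overlap, but nANGPTL4 AAV library 2 and control AAV library 4 were nearly tied, and the log2 fold change was 0.23 ± 0.06 (standard error, adjusted p by edgeR = 0.110). Herc6, the ligase that attaches ISG15 in mice, had 27.4 to 31.8 CPM in nANGPTL4 AAV and 28.6 to 33.6 CPM in control AAV, with overlapping groups and a log2 fold change of -0.03 (95% interval -0.17 to 0.12). Of the sequence of Isg15, 12.8% recurs in other genes, and 13.7% of the exonic bases of Herc6 overlap another gene on the same strand, so their counts are less certain.

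Rsad2 encodes viperin, an enzyme that makes a chain-terminating nucleotide, and Cmpk2 encodes the kinase that supplies its substrate. Both lie on chromosome 12 with starts 12752 bases apart, Rsad2 on the minus strand at 26442746 to 26456452 and Cmpk2 on the plus strand at 26469204 to 26479837 of mm10. Rsad2 had 20.6, 20.7, 17.7 and 19.4 CPM in nANGPTL4 AAV libraries, against 16.3, 12.6, 12.1 and 16.0 CPM in control AAV libraries. The groups did not overlap, and the means of 19.6 ± 1.39 and 14.2 ± 2.20 CPM (SD over 4 libraries each) gave a log2 fold change of 0.46 ± 0.10 (standard error, adjusted p by edgeR = 0.0785). Cmpk2 had 108, 104, 105 and 117 CPM in nANGPTL4 AAV libraries, against 99.3, 98.0, 96.5 and 107 CPM in control AAV libraries. Its groups overlapped through control AAV library 4, with a log2 fold change of 0.12 ± 0.05 (standard error, adjusted p by edgeR = 0.259).

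The IFIT proteins bind foreign RNA and block its translation, and their genes lie side by side on chromosome 19. Ifit3 had 54.2, 55.9, 60.3 and 56.4 CPM in nANGPTL4 AAV libraries, against 40.95, 45.5, 40.3 and 54.7 CPM in control AAV libraries. Control AAV library 4 lay within the nANGPTL4 AAV range and the other control libraries below it, and the log2 fold change was 0.32 ± 0.09 (standard error, adjusted p by edgeR = 0.110). Its near copy Ifit3b, which shares 61.8% of its sequence words, had a log2 fold change of 0.28 ± 0.11 (standard error, adjusted p by edgeR = 0.217). Ifit1 had 59.6, 50.2, 58.6 and 64.5 CPM in nANGPTL4 AAV libraries, against 45.9, 49.2, 47.7 and 54.1 CPM in control AAV libraries. Only nANGPTL4 AAV library 2 lay within the control range, and the log2 fold change was 0.24 ± 0.08 (standard error, adjusted p by edgeR = 0.144). Ifit2 had 20.8, 20.4, 20.1 and 22.4 CPM in nANGPTL4 AAV libraries, against 17.7, 19.4, 17.3 and 20.1 CPM in control AAV libraries. Its groups did not overlap, by the narrow gap between nANGPTL4 AAV library 3 and control AAV library 4, and the log2 fold change was 0.17 ± 0.06 (standard error, adjusted p by edgeR = 0.211).

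**Figure D2:**
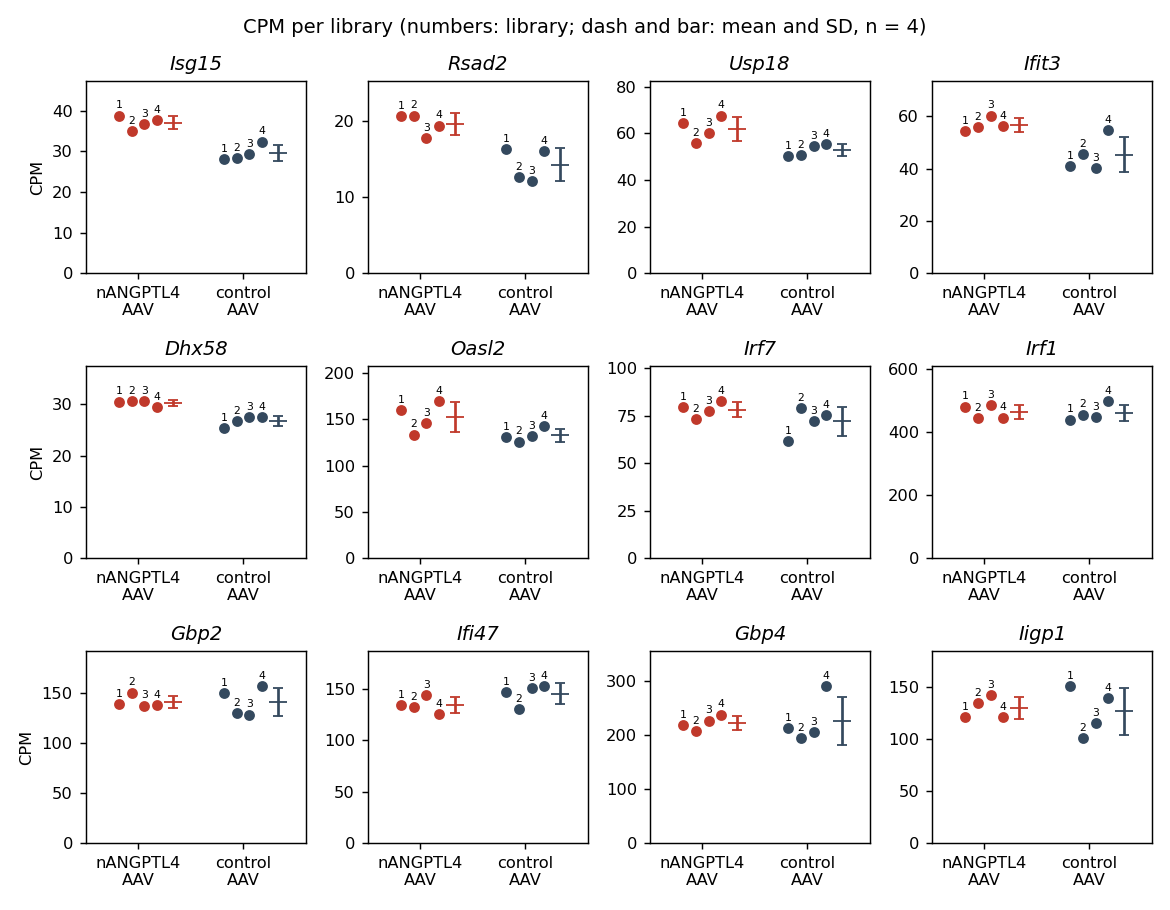
CPM in each library (points numbered by library) with the group mean and SD (n = 4) for 12 of the genes, nANGPTL4 AAV left of control AAV. For Isg15, Rsad2, Usp18 and Dhx58 all nANGPTL4 AAV points lie above all control AAV points, while for Irf1, Gbp2, Ifi47, Gbp4 and Iigp1 the groups overlap and control AAV library 4 is among the 2 highest controls.

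The other effectors all had positive log2 fold changes, of 0.02 to 0.20 apart from the scarce Mx1 at 0.49. Oasl2, an antiviral relative of the oligoadenylate synthetases, had 160.1, 133, 146 and 169.9 CPM in nANGPTL4 AAV libraries, against 130.4, 126, 132 and 143 CPM in control AAV libraries. Again only nANGPTL4 AAV library 2 lay within the control range, and the log2 fold change was 0.20 ± 0.07 (standard error, adjusted p by edgeR = 0.189). Samhd1, which depletes the nucleotides that viruses copy with, had 75.8, 78.4, 76.6 and 79.0 CPM in nANGPTL4 AAV libraries, against 73.5, 66.4, 72.4 and 75.1 CPM in control AAV libraries. The groups did not overlap, by a narrow gap, and the log2 fold change was 0.11 ± 0.05 (standard error, adjusted p by edgeR = 0.254). Bst2, or tetherin, which holds budding virus at the cell surface, had 286, 276, 258 and 261 CPM in nANGPTL4 AAV libraries, against 245, 262, 261 and 272 CPM in control AAV libraries. Its groups overlapped (log2 fold change 0.05 ± 0.05 SE, adjusted p by edgeR = 0.615). Eif2ak2, the RNA-activated kinase PKR that halts translation, and Oas1a, an oligoadenylate synthetase, had overlapping groups with log2 fold changes of 0.07 and 0.02. Oas1a shares 68.8% of its sequence words with other genes, almost all with Oas1g, so its count is uncertain. The dynamin-like GTPases Mx1 and Mx2, whose genes are defective in many laboratory mouse strains, had log2 fold changes of 0.49 (SE 0.29) and 0.16 (SE 0.11). Mx1 was scarce, at 0.324 to 0.533 CPM in nANGPTL4 AAV and 0.157 to 0.416 CPM in control AAV, and both genes had overlapping groups.

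The sensors of foreign nucleic acid differed in sign, with none past the test. Dhx58, or LGP2, which tunes the RIG-I-like receptors, had 30.5, 30.6, 30.6 and 29.4 CPM in nANGPTL4 AAV libraries, against 25.3, 26.6, 27.5 and 27.5 CPM in control AAV libraries. Its groups did not overlap, with a log2 fold change of 0.18 ± 0.05 (standard error, adjusted p by edgeR = 0.106), and 4.31% of its exonic bases overlap an antisense gene. Zbp1, a sensor of left-handed nucleic acid, had 13.7, 11.1, 9.67 and 10.3 CPM in nANGPTL4 AAV libraries, against 8.79, 8.28, 8.76 and 10.8 CPM in control AAV libraries. Its groups overlapped through control AAV library 4 (log2 fold change 0.29 ± 0.12 SE, adjusted p by edgeR = 0.243). Ddx58, which encodes the RNA sensor RIG-I, had 113, 106, 115 and 123 CPM in nANGPTL4 AAV libraries, against 119, 127, 121 and 125 CPM in control AAV libraries. Its log2 fold change was -0.11 ± 0.05 (standard error, adjusted p by edgeR = 0.301), with nANGPTL4 AAV library 4 inside the control range. Ifih1, which encodes MDA5, a sensor of long double-stranded RNA, had a log2 fold change of -0.05 (95% interval -0.15 to 0.05).

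The regulators of the response all had positive log2 fold changes of 0.12 or less. Irf7, the factor that amplifies type I interferon production, had 79.7, 73.1, 77.6 and 82.9 CPM in nANGPTL4 AAV libraries, against 61.7, 78.9, 72.2 and 75.6 CPM in control AAV libraries. The groups overlapped and the log2 fold change of 0.12 ± 0.07 (standard error, adjusted p by edgeR = 0.422) was 0.06 without control AAV library 1. Stat2 had 177, 143, 173 and 189.7 CPM in nANGPTL4 AAV libraries, against 162, 170.3, 169.5 and 174 CPM in control AAV libraries. The nANGPTL4 AAV libraries spread on both sides of the controls, library 2 lowest and library 4 highest of all, and the log2 fold change was 0.01 (95% interval -0.15 to 0.18). Irf9, the DNA-binding partner of STAT2, and Trim25, a ubiquitin ligase linked to RIG-I, had overlapping groups with log2 fold changes of 0.02 and 0.05. The remaining antiviral genes were Rtp4, Xaf1, Sp100, Parp9, Parp14, Ifi44 and Ifi35. Rtp4, a receptor chaperone, had 84.5, 73.4, 83.5 and 87.5 CPM in nANGPTL4 AAV libraries, against 72.4, 73.5, 74.0 and 80.6 CPM in control AAV libraries. Its groups overlapped through nANGPTL4 AAV library 2, and its log2 fold change of 0.13 ± 0.06 (standard error, adjusted p by edgeR = 0.285) was the highest of these 7 genes. Ifi35, the lowest of the 7 in log2 fold change, had 119, 122, 122 and 117 CPM in nANGPTL4 AAV libraries, against 117, 113, 125 and 117 CPM in control AAV libraries. Its groups overlapped (log2 fold change 0.02, 95% interval -0.07 to 0.12), and 16.8% of its exonic bases overlap a gene on the other strand. Between them lay Xaf1, which promotes apoptosis (0.10), Sp100, a nuclear body protein (0.06), the ADP-ribosyltransferase family members Parp9 (0.05) and Parp14 (0.03), and Ifi44 (0.03), all with overlapping groups. The strand setting of the counts is unknown, and Parp9 shares 9.40% of its exonic bases with Dtx3l and Usp18 4.44% with a gene on the opposite strand.

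The GBP and IRG GTPases attack the membranes around intracellular microbes. Gbp2 had 138, 150.0, 137 and 138 CPM in nANGPTL4 AAV libraries, against 149, 129.7, 128 and 157 CPM in control AAV libraries. The control libraries enclosed all nANGPTL4 AAV libraries, and the log2 fold change was -0.0015 (95% interval -0.15 to 0.15). Ifi47, an IRG GTPase, had 134, 132, 144 and 126 CPM in nANGPTL4 AAV libraries, against 147, 130.3, 151 and 153 CPM in control AAV libraries. Its groups overlapped through control AAV library 2, and its log2 fold change of -0.12 ± 0.06 (standard error, adjusted p by edgeR = 0.343) was the lowest of the 8 GTPases. The other 6 had overlapping groups, with log2 fold changes of 0.13 for Gbp3, 0.11 for Igtp, 0.03 for Iigp1, 0.0046 for Irgm1, -0.01 for Gbp7 and -0.02 for Gbp4. Their 95% intervals reached at most 0.35 for Igtp and at least -0.26 for Gbp4, so changes of the size seen in Rsad2 lay outside them. All 6 intervals held the antiviral median of 0.10, and that of Igtp also held the value of Isg15 (0.33). Members of both families resemble their neighbours: 15.9% of the sequence words of Igtp recur in Irgm2, and 14.3% of those of Gbp4 and 14.7% of those of Gbp7 recur in other genes.

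Irf1, the factor that carries much of the interferon gamma response, had 480.4, 444, 484 and 446 CPM in nANGPTL4 AAV libraries, against 439, 455, 447 and 499 CPM in control AAV libraries. Its groups overlapped fully (log2 fold change 0.01, 95% interval -0.11 to 0.13). Cxcl9 and Cxcl10, chemokines that draw CXCR3-bearing T cells, were scarce. Cxcl9 had 0.141, 0.494, 0.164 and 0.263 CPM in nANGPTL4 AAV libraries, against 0.384, 0.345, 0.194 and 0.322 CPM in control AAV libraries. Cxcl10 had 2.60, 1.90, 1.24 and 1.19 CPM in nANGPTL4 AAV libraries, against 1.56, 1.601, 1.26 and 1.45 CPM in control AAV libraries. Both had overlapping groups and wide intervals, with log2 fold changes of -0.24 (SE 0.38) for Cxcl9 and 0.23 (SE 0.24) for Cxcl10, the second of which was -0.02 without nANGPTL4 AAV library 1.

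Levels per length, in CPM per kb of annotated exon, spanned more than 3 powers of 10 within the set. Bst2 was highest, at a mean of 299 in nANGPTL4 AAV and 288 in control AAV, followed by Irf1 at 117 in nANGPTL4 AAV and 116 in control AAV and Ifi35 at 69.5 in nANGPTL4 AAV and 68.3 in control AAV. Ifi47, Gbp2 and Igtp came next, at 46.4 to 55.9 in nANGPTL4 AAV and 43.0 to 58.7 in control AAV. Isg15 was at 49.0 in nANGPTL4 AAV and 39.0 in control AAV. Rsad2 was among the scarcer genes, at 4.51 in nANGPTL4 AAV and 3.28 in control AAV. Mx1 (0.115 in nANGPTL4 AAV and 0.0806 in control AAV) and Cxcl9 (0.088 in nANGPTL4 AAV and 0.103 in control AAV) were lowest. Every gene of the set had at least 13 counts in each library, and 35 of them had at least 1000 in each.

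**Figure D3:**
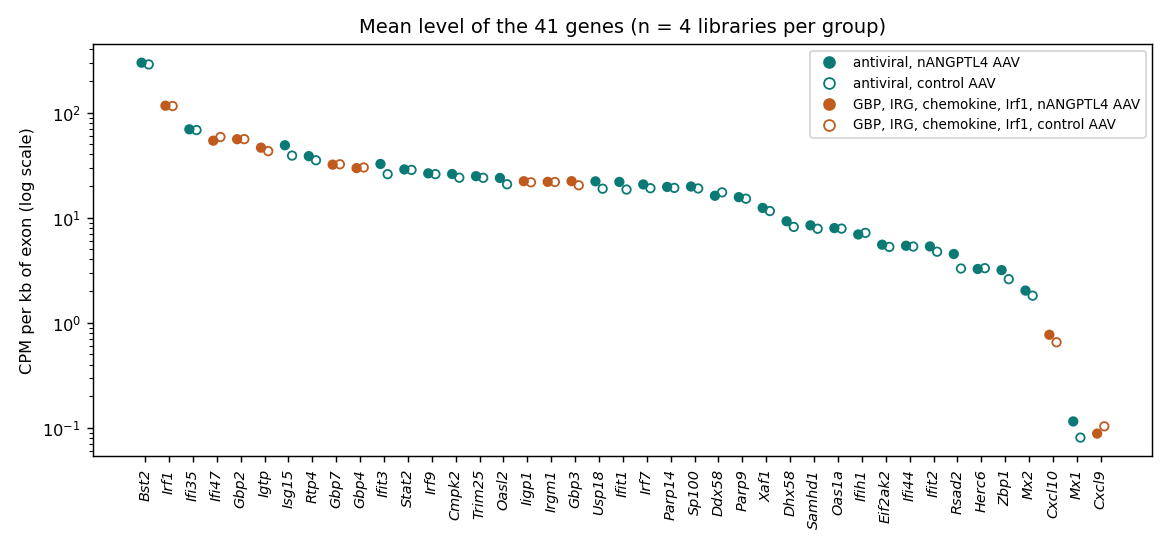
Mean CPM per kb of exon (log scale) for the 41 genes in descending order, filled points for nANGPTL4 AAV and open points for control AAV, n = 4 libraries each. Antiviral and interferon gamma class genes are mixed along the range, from Bst2 near 294 over all libraries to Mx1 and Cxcl9 near 0.1.

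Libraries differed within each group, and differently for the classes. Each gene's log2 CPM was expressed as a deviation from its mean over the 8 libraries and averaged over a class. For the 30 antiviral genes this mean deviation was 0.10, -0.0042, 0.04 and 0.13 in nANGPTL4 AAV libraries 1 to 4, against -0.11, -0.08, -0.10 and 0.03 in control AAV libraries 1 to 4. The groups overlapped, since nANGPTL4 AAV library 2 lay below control AAV library 4. For all tested genes the mean deviation was 0.02, 0.03, 0.0057 and 0.04 in nANGPTL4 AAV libraries, against -0.05, -0.02, 0.0069 and -0.04 in control AAV libraries. Library 4 of the nANGPTL4 AAV group was the highest of the 8 for 16 of the 30 antiviral genes, where it was for 11.3% of all tested genes. For the 8 GBP and IRG genes the mean deviation was 0.02, 0.0045, 0.03 and -0.0017 in nANGPTL4 AAV libraries, against 0.07, -0.20, -0.11 and 0.19 in control AAV libraries. Control AAV library 4 was the highest for 6 of these 8 genes, where it was for 7.74% of all tested genes. The median log2 fold change of the interferon gamma class was 0.08 without control AAV library 4 and -0.04 without control AAV library 2.

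**Figure D4:**
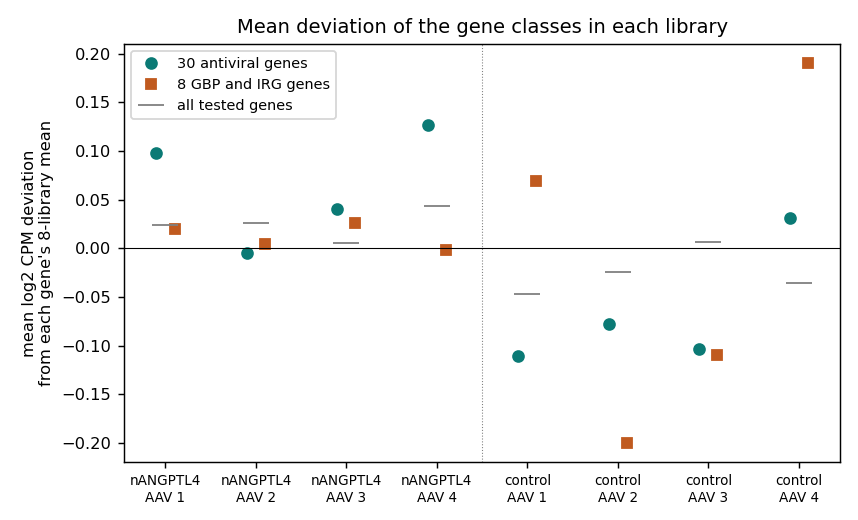
Mean deviation of log2 CPM from each gene's mean over the 8 libraries, for the 30 antiviral genes, the 8 GBP and IRG genes and all tested genes, nANGPTL4 AAV libraries left of control AAV libraries. The antiviral mean ranges from -0.0042 to 0.13 in nANGPTL4 AAV and from -0.11 to 0.03 in control AAV, and the GBP and IRG mean spreads most among the controls, from -0.20 to 0.19.

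The rest of the pathway was described with 101 further genes, of which 87 were tested and 0 were called by edgeR, with 52 positive and 35 negative log2 fold changes. At an unadjusted p under 0.05, 9 of the 87 were higher in nANGPTL4 AAV, where 7.35% of all tested genes were, and 8 were lower, where 10.3% were. DESeq2 called 5 of them, Oasl1 and Ifi204 higher and Tlr3, Tmem173 and Ptpn2 lower, where it called 6.29% of the genes it tested. These counts are near the shares over all genes. Of the 9 interferon genes listed, only Ifna2, Ifnk and Ifnl3 were matched to a row, and the others could not be examined. Each of these 3 had at most 7 counts in any library, too few to test. Of the 6 receptor chains 5 had negative log2 fold changes, where 9014 of 18874 tested genes and 5787 of 9256 with a mean log2 CPM over 3 did. Ifngr2, the signalling chain of the interferon gamma receptor, had 124, 130.4, 136 and 138 CPM in nANGPTL4 AAV libraries, against 145, 144, 147 and 141 CPM in control AAV libraries. Its groups did not overlap (log2 fold change -0.13 ± 0.04 SE, adjusted p by edgeR = 0.171), while Ifnar1 and Ifnar2, the type I receptor chains, had log2 fold changes of -0.03 and 0.05. Of the genes between receptor and nucleus, Stat3, a transcription factor of cytokine signalling, had a log2 fold change of -0.13 (adjusted p by edgeR = 0.217).

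Among the sensing genes outside the set, 5 of 11 were positive, where 52.2% of all tested genes and 37.5% of those with a mean log2 CPM over 3 were. Tlr3, the endosomal receptor of double-stranded RNA, had 54.0, 50.03, 60.1 and 61.2 CPM in nANGPTL4 AAV libraries, against 66.4, 65.1, 64.8 and 66.0 CPM in control AAV libraries. The groups did not overlap (log2 fold change -0.22 ± 0.06 SE, adjusted p by edgeR = 0.115). Tmem173, which encodes the DNA-sensing adaptor STING, also had groups that did not overlap, at 4.53 to 5.35 CPM in nANGPTL4 AAV and 5.46 to 7.30 CPM in control AAV (log2 fold change -0.36 ± 0.11 SE, adjusted p by edgeR = 0.131). Tbk1, the kinase that activates IRF3, had overlapping groups (log2 fold change -0.19 ± 0.07 SE, adjusted p by edgeR = 0.170). Tlr9, the receptor of unmethylated DNA, had the highest log2 fold change of these genes at 0.81 ± 0.28 SE (adjusted p by edgeR = 0.175), with overlapping groups of 0.438 to 0.584 CPM in nANGPTL4 AAV and 0.165 to 0.448 CPM in control AAV. Of 7 negative regulators, 5 were positive, and Ptpn2, a phosphatase that restrains JAK signalling, was lower in value, with a log2 fold change of -0.23 ± 0.06 (standard error, adjusted p by edgeR = 0.110). Of 39 further antiviral genes tested, 27 were positive with a median of 0.03, where the antiviral genes of the set had a median of 0.10. Oasl1, a relative of Oasl2 that restrains Irf7 translation, had 9.82, 11.1, 9.88 and 10.2 CPM in nANGPTL4 AAV libraries, against 7.36, 7.58, 7.55 and 8.47 CPM in control AAV libraries. Its groups did not overlap (log2 fold change 0.40 ± 0.07 SE, adjusted p by edgeR = 0.0642). Of 19 further genes of the interferon gamma class, 14 were positive with a median of 0.06, and the smallest edgeR adjusted p was 0.230. The wider lists thus did not show the contrast of the 41 genes, in which the antiviral genes had the larger share of positive values.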

How the data were processed

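RNA of sorted lung endothelial cells was isolated with a small-sample kit and made into libraries with a low-input cDNA kit, per the labels' protocols. The authors deposited raw counts for each gene as whole numbers, without scaling. The submitters' processing notes name mm10 as the build, while aligner, counter, strand setting and annotation are not given in the sources used here. Of 31610 gene identifiers, 31491 were matched without version numbers to GENCODE M21, also on mm10, for symbols, coordinates, exon lengths, overlaps and the share of 31-base words found in other genes.

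Counts were compared with edgeR 4.0.16 in R 4.3.3 on all 8 libraries: filterByExpr (minimum count 10), TMM scaling, quasi-likelihood F test with group as the only term, and Benjamini-Hochberg adjustment over 18874 genes, with calls at an adjusted p under 0.05. CPM used TMM-scaled library sizes, and log2 CPM a prior count of 2. SE and 95% intervals came from the same fit. The biological coefficient of variation was 11.3%. The procedure was tested on simulated data, with 50 genes changed at each fold. It recovered 38% of them at 1.25-fold, 86% at 1.5-fold and 100% at 2-fold and 4-fold, and called 7 unchanged genes. Isg15 had a fold of 1.25 and Rsad2 of 1.38, sizes at which recovery was incomplete. The replicate numbers did not pair the libraries.

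The genes and lists were chosen with earlier results of these data known, so they were given no list test, no adjustment over the list and no p for a score. All 41 genes were named. Values in every library were given for the 12 with the smallest p, for Irf7, Stat2, Irf1, Cxcl9 and Cxcl10, and for the 2 antiviral and the 2 GBP or IRG genes highest in CPM per kb. Of the 101 other pathway genes, up to 4 per list with the smallest p could be named. Ddx58, Ifnar1 and Ifnar2 were given besides for their role, and Ifit3b as the near copy of Ifit3. Among markers, Vwf, Tek and Cd68 were named after their values were seen, and the other myeloid markers were then given beside Cd68. Alternatives were other scalings and filters, DESeq2 1.42.0, limma-voom (limma 3.58.1), a robust fit, the replicate number as a block, near-identical copies summed, and each library left out.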

Additional observations from a re-analysis of the deposited data

Results flagged for a closer look

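Each gene was examined for a library far from the other 3 of its group, in 82 groups of 4 libraries, of which chance flags about 1 in 20 (4.1), and 3 stood out. Dhx58 was lowest in nANGPTL4 AAV library 4, at 29.36 CPM against 30.49 to 30.64 CPM in the other 3, a small distance in a tight group. Gbp2 was highest in nANGPTL4 AAV library 2, at 150.0 CPM against 137.1 to 138.1 CPM in the other 3. Irgm1 was lowest in the same library, at 109.6 CPM against 131.9 to 135.0 CPM in the other 3.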

How the results depend on the processing

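Over 18 alternatives, 0 of the 41 genes were called except with DESeq2 (5 genes) and the robust edgeR fit (1 gene). Of the 101 further pathway genes, 0 were called except with DESeq2 (5 genes, Oasl1, Ifi204, Tlr3, Tmem173 and Ptpn2). The replicate numbers of the 2 groups did not pair the libraries: the deviations of same-numbered libraries correlated with r of -0.20 to 0.04, and 1 of 8 libraries correlated best with its own number. With the replicate block 0 genes of the set were called, and the antiviral median log2 fold change was 0.10. This median was 0.10 with TMM, 0.15 with library size only, 0.14 with upper quartile scaling and 0.08 to 0.13 with each library left out. The median of the interferon gamma class was 0.0046 with TMM, 0.05 with library size only, 0.04 with upper quartile scaling and -0.04 to 0.08 with each library left out. The median of all tested genes was 0.05 with library size only and 0.05 with upper quartile scaling, against 0.01 with TMM. Of the 41 genes, 28 kept their sign in every alternative, and 13 did not. Gbp2 (-0.0015) was 0.040 with upper quartile scaling, 0.043 with library size only, 0.0026 with RLE scaling, 0.0031 with no filter, 0.014 with the stricter filter and 0.0029 with the replicate block. With upper quartile scaling Gbp4 was 0.020, Gbp7 0.029 and Herc6 0.013, and with library size only Gbp4 was 0.024, Gbp7 0.032 and Herc6 0.017, while Gbp7 was 0.0033 with the stricter filter. With each library left out, the ranges of those that changed sign were -0.033 to 0.052 for Gbp2, -0.075 to 0.13 for Gbp4, -0.062 to 0.038 for Gbp7, -0.051 to 0.032 for Herc6, -0.019 to 0.38 for Cxcl10, -0.032 to 0.077 for Ifi44, -0.049 to 0.14 for Iigp1, -0.0028 to 0.051 for Irf1, -0.0045 to 0.10 for Irf9, -0.038 to 0.084 for Irgm1, -0.019 to 0.077 for Oas1a, -0.046 to 0.11 for Parp14 and -0.039 to 0.10 for Stat2. The causes were not tested. An adjusted p over the threshold does not show that a gene was the same in both groups.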
